A study of Mus musculus with 6 samples.

Results

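The immunoglobulin genes and Jchain were followed in RNA sequencing of 6 mouse kidney libraries. Members were the gene symbols that name an immunoglobulin heavy, kappa or lambda constant or variable gene (the pattern leaves out Ighmbp2, a helicase gene), plus Jchain, with 10 or more counts summed over the 6 libraries. This gave 165 of the 51804 gene symbols in the table, out of 380 symbols that match the names. Members were thus chosen by their name and selected on their summed count over all libraries, not on the difference between groups, but with earlier results of these data known. It holds 7 heavy constant genes, 72 heavy variable genes, 1 kappa constant gene, 78 kappa variable genes, 3 lambda constant genes, 3 lambda variable genes and Jchain. At the threshold, Igkv5-45, Ighv7-1 and Ighv1-84 entered with 10 counts each, while Ighv1-31 and Igkv8-18 stayed out with 9 counts each.

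The 3 libraries labelled knockout came from mice with the genotype Ccnb1f/f;Cdh16-Cre, and the 3 control libraries from Ccnb1f/f mice, so both groups carry the floxed alleles of Ccnb1, the gene of the mitotic cyclin B1. The study set these groups against each other to ask about arrest of the cell cycle in renal epithelium and fibrosis of the kidney. The Cdh16 promoter drives Cre recombinase in renal tubular epithelium and is not active in B cells or plasma cells, so the deletion was not aimed at the cells that make immunoglobulin. The sources used here do not give age, strain, the floxed exons or the library preparation, and the text on RNA extraction mentions cultured cells beside kidney. No label says whether replicates are separate animals, and p-values therefore reflect only how these libraries vary, which may be technical.

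A B cell builds each antibody chain by joining 1 variable gene segment to a constant region, and the heavy constant region sets the class (Ighm for IgM, Ighd for IgD, the Ighg genes for IgG, Igha for IgA). Plasma cells secrete antibody and devote much of their mRNA to these chains, and Jchain encodes the peptide that links IgA and IgM into polymers. Polymeric IgA is carried across epithelia by the receptor encoded by Pigr, and most IgA is made in plasma cells of mucosal tissue.

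Each heavy constant gene can end in either of 2 ways, and the ends are shown for Igha and Ighm because they separate antibody that is secreted from the receptor that stays in the membrane. The secreted ends run over chr12:113258768-113258859 (Igha) and chr12:113420867-113420958 (Ighm), both on the minus strand of GRCm38, and the capitals mark the 62 bases that the secreted form reads after the point where the membrane form splices away. The membrane ends begin at exons on the same strand, with the first 62 bases of each, all in capitals, over chr12:113256336-113256397 (Igha) and chr12:113419007-113419068 (Ighm). The sequences are from GENCODE M21 transcripts.
Igha secreted: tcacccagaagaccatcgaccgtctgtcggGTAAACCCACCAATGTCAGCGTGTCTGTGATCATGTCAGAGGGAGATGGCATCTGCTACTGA
Ighm secreted: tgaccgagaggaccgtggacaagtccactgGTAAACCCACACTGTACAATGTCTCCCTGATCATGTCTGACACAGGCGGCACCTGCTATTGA
Igha membrane: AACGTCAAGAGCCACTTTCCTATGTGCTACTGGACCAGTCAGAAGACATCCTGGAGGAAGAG
Ighm membrane: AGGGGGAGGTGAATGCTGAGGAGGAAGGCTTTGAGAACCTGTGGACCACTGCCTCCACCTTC
The secreted ends of Igha and Ighm, the tailpieces through which Jchain joins the chains, are identical at 43 of 62 bases.

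The libraries held 16061435 to 21261226 estimated counts. Ccnb1 had 18, 15 and 11 counts in the libraries labelled knockout, against 11, 17 and 7 in the control libraries (log2 fold change 0.34, SE 0.46; adjusted p = 0.999 by the edgeR quasi-likelihood test), so at this depth the targeted gene does not check the labels. Control 2 stood apart on the leading principal component, which holds 31.2% of the variance, at -39.8 where the others spanned -2 to 13.6. Control 3 stood apart in Hspa1a, a heat shock gene, with 791 CPM, and in Egr1, an immediate early gene, with 438 CPM, against 13.9 to 99.2 CPM and 22.2 to 50.6 CPM in the other 5 libraries (CPM are counts scaled to a common TMM-normalised library size). Control 2 and control 3 also gave the lowest and highest values of Igha, Igkc and Jchain, so fold changes without control 3 are given for named members that move by more than 1.5 times without it; what these differences contribute to the immunoglobulin values was not tested.

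All 165 genes together made up a small part of each library, dominated by IgA. Summed immunoglobulin counts were 6228, 6930 and 15415 in the libraries labelled knockout, against 11210, 7157 and 29000 in the control libraries. Scaled, these are 361, 437 and 710.2 CPM in the libraries labelled knockout, against 679.6, 362 and 1692 CPM in the control libraries. The groups overlapped, since control 2 held nearly as little as the lowest library labelled knockout and control 3 held more than any other library. The means were 502 ± 184 CPM in the knockout group and 911 ± 695 CPM in the control group (SD, n = 3 each), a log2 ratio of -0.86. Without control 3 that log2 ratio was -0.05. In whole kidney, the number of plasma cells and the immunoglobulin mRNA per cell cannot be told apart as sources of differences between libraries.

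**Figure D1:**
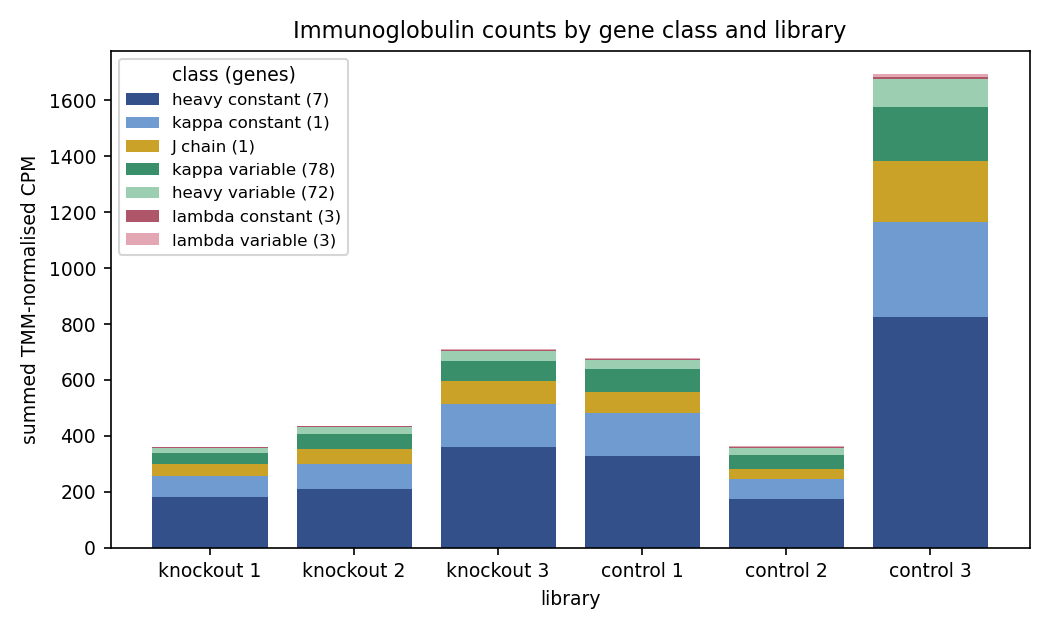
Summed TMM-normalised CPM of the immunoglobulin gene classes in each of the 6 libraries, with the 3 labelled knockout on the left and the 3 controls on the right. Control 3 is the tallest at 1692 CPM, and control 2 stands at 362 CPM, beside knockout 1 at 361 CPM.

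No member passed the test in either direction. The edgeR quasi-likelihood test called 0 of the 75 members that passed its expression filter, where it called 0.0133% of all 15017 genes tested, 0.00666% in each direction. DESeq2 also called 0 members, with 0.0623% of its genes called, and so did limma. The 75 were 5 of 7 heavy constant genes, Igkc, Jchain, 2 of 3 lambda constant genes, 17 of 72 heavy variable genes, 47 of 78 kappa variable genes and 2 of 3 lambda variable genes. At an unadjusted p under 0.05 in edgeR, 16 members were lower in the knockout group and 0 were higher, with 1.88% of all genes tested lower and 1.35% higher at that level. A member can pass the filter through the libraries of 1 group alone, so these counts are a description. The 16 are 21.3% of the tested members, and without control 3 there were 5 lower and 2 higher of 76 tested, without knockout 1 there were 6 lower, and without control 2 there were 38 lower.

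Most members had the lower mean in the knockout group, and most had their highest value in control 3. The mean CPM was lower in the knockout group for 146 of the 165 members (88.5%), against 51.6% of all genes with 10 or more summed counts. Control 3 was the highest library for 111 members (67.3%), against 15% of those genes. When control 3 was left out, 101 members were lower and 62 were higher, with 50.8% of all genes lower. The groups did not overlap for 17 members (10.3%), all lower in the knockout group, against 4.15% of genes lower and 4.25% higher in the background. Of these 17, 9 entered the edgeR test. A member can pass the minimum of 10 summed counts through 1 group or 1 library alone, as Igkv3-3 did through control 3. The counts of members in this paragraph are therefore a description, and the background genes had the same minimum. Members share their libraries and are made by the same cells, so their counts are not independent of each other.

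The IgA heavy chain was the leading member. Igha (ENSMUSG00000095079, chromosome 12, 113254830 to 113260236, minus strand, GRCm38) had 150.6, 163 and 279 CPM in the libraries labelled knockout, against 276, 82.5 and 718 CPM in the control libraries. Control 2 was the lowest of the 6 libraries and control 3 the highest, so the knockout values lay inside the control range. The log2 fold change was -0.86 (SE 0.64; edgeR adjusted p = 0.999). By exact permutation, two-sided, p was 0.8, where 0.1 is the smallest that 3 against 3 allows. Without control 3 the log2 fold change was 0.14. The highest library held 8.70 times the lowest, a ratio reached by 2.2% of the genes tested, where the median gene had a ratio of 1.48; the ratios of Igkc and Jchain were reached by 4.79% and 3.18%.

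Jchain and Igkc, the kappa light chain constant gene, followed the same order of libraries at the extremes. Jchain (chromosome 5, 88519809 to 88527891, minus strand) had 42.2, 54.0 and 80.9 CPM in the libraries labelled knockout, against 78.1, 34.7 and 217 CPM in the control libraries. Igkc (chromosome 6, 70726435 to 70726966, plus strand) had 73.7, 91.6 and 155 CPM in the libraries labelled knockout, against 151, 71.4 and 341 CPM in the control libraries. For both genes control 2 was the lowest library, control 3 was the highest and the groups overlapped. The log2 fold changes were -0.89 (SE 0.57) for Jchain and -0.81 (SE 0.52) for Igkc, and the exact permutation test gave p = 0.7 for each. Without control 3 the fold change of Jchain was 0.070 and that of Igkc was -0.05 on the log2 scale.

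**Figure D2:**
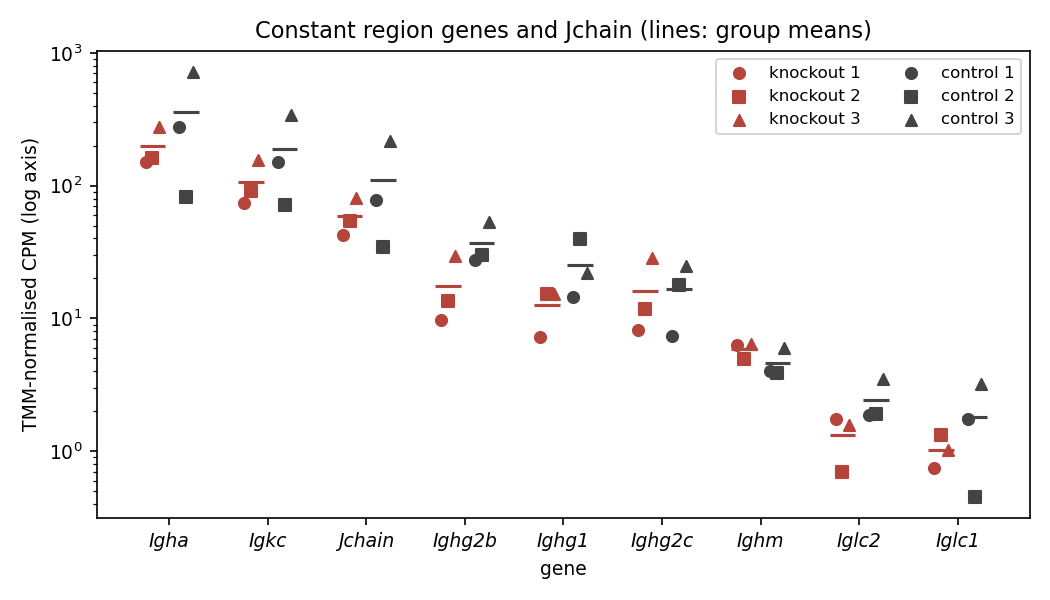
TMM-normalised CPM of the tested constant region genes and Jchain on a log axis, 1 point per library and a line at each group mean, with the libraries labelled knockout to the left of the controls for each gene. Igha ranges from 82.5 CPM in control 2 to 718 CPM in control 3, whereas Ighm stays between 3.90 and 6.45 CPM.

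The ratio of light to heavy chains and the kappa share varied little between libraries whose levels differed several-fold, and the ratio of Jchain to Igha varied more. Per kb of transcript, the light constant genes summed to 0.876, 0.940 and 0.918 of the heavy constant genes in the libraries labelled knockout, against 0.976, 0.883 and 0.878 in the control libraries. Kappa made up 96.6, 97.5 and 98.3% of light constant counts in the libraries labelled knockout, against 97.5, 96.6 and 98.0% in the control libraries. The count of Jchain per count of Igha was 0.280, 0.332 and 0.290 in the libraries labelled knockout, against 0.283, 0.421 and 0.302 in the control libraries. The highest of these Jchain ratios was that of control 2, the library with the least Igha. The ratio leaves out IgG, which made up 50.3% of heavy constant counts in control 2. As a share of all immunoglobulin counts, Jchain was lowest in control 2, at 9.59%, against 11.4 to 12.8% in the other libraries.

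The IgG genes did not follow Igha in control 2. Ighg1 (chromosome 12, 113325240 to 113330523) had 7.24, 15.3 and 15.2 CPM in the libraries labelled knockout, against 14.6, 39.4 and 21.8 CPM in the control libraries. Its highest library was control 2, where Igha was lowest, and the groups overlapped. Ighg2b (chromosome 12, 113302965 to 113307933) had 9.67, 13.4 and 29.6 CPM in the libraries labelled knockout, against 27.4, 30.3 and 52.8 CPM in the control libraries. Only knockout 3 reached into the control range of Ighg2b. The log2 fold changes were -1.01 (SE 0.40) for Ighg1 and -1.06 (SE 0.42) for Ighg2b, each with an unadjusted p of 0.035 and an adjusted p of 0.999 in edgeR. The log2 fold change of Ighg1 was -0.53 without control 2 and -0.73 without knockout 1. That of Ighg2b was -0.71 without control 3, -0.77 without knockout 1 and -1.67 without knockout 3.

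Ighg2c, the IgG2 gene carried by C57BL/6 and related strains in place of Ighg2a, had nearly equal means in both groups, and its difference from the other IgG genes was not tested. Ighg2c (chromosome 12, 113285325 to 113288932) had 8.16, 11.8 and 28.7 CPM in the libraries labelled knockout, against 7.34, 17.8 and 24.8 CPM in the control libraries. The groups spanned nearly the same range, with a log2 fold change of -0.03 (SE 0.53) that lay between -0.74 without knockout 3 and 0.37 without control 3. As a share of IgG constant counts, Ighg2c was 32.6, 29.0 and 38.9% in the libraries labelled knockout, against 14.9, 20.3 and 24.9% in the control libraries. These shares did not overlap, with means of 33.5 ± 5.03% in the knockout group and 20.03 ± 5.00% in the control group (SD, n = 3 each). No test was run on them, and they are 1 of 2 shares without overlap among the 31 that were compared. Ighg2b and Ighg2c are 86.8% identical over 1109 aligned bases, so reads could be split between them. Ighg3 had 0, 2 and 6 counts in the libraries labelled knockout, against 0, 0 and 5 in the control libraries, too few for the test.

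Ighm, the IgM heavy chain of naive B cells and of early plasma cells, was the most even of the tested heavy constant genes. Ighm (chromosome 12, 113418558 to 113422730) had 6.31, 4.92 and 6.45 CPM in the libraries labelled knockout, against 4.001, 3.90 and 5.95 CPM in the control libraries. Its highest library was knockout 3, and control 3 lay inside the knockout range, in contrast to its place in Igha. The log2 fold change was 0.35 (SE 0.24; edgeR adjusted p = 0.999), and 0.58 without control 3. Ighd, the IgD chain of naive B cells, had 12, 5 and 3 counts in the libraries labelled knockout, against 5, 1 and 4 in the control libraries and was not tested.

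Lambda light chains were a small minority. Iglc2 (chromosome 16, 19198396 to 19200351) had 1.74, 0.693 and 1.57 CPM in the libraries labelled knockout, against 1.88, 1.92 and 3.50 CPM in the control libraries. The groups did not overlap, although knockout 1 and control 1 lay close to each other, and the log2 fold change was -0.85 (SE 0.42; edgeR adjusted p = 0.999), with -0.50 without control 3 and -0.56 without knockout 2. Iglc1 had 0.752, 1.32 and 1.01 CPM in the libraries labelled knockout, against 1.76, 0.456 and 3.21 CPM in the control libraries, with overlapping groups and a log2 fold change of -0.80 (SE 0.62) that was -0.084 without control 3. Iglc3, which is 95.3% identical to Iglc2, had 2, 5 and 2 counts in the libraries labelled knockout, against 5, 3 and 5 in the control libraries. Among lambda variable genes, Iglv1 had 0.810, 2.02 and 2.53 CPM in the libraries labelled knockout, against 2.79, 1.01 and 6.59 CPM in the control libraries, with a log2 fold change of -0.94 (SE 0.66) that was -0.065 without control 3. Iglv2 had a log2 fold change of -0.41 (SE 0.61), which was -0.13 without control 3 and -0.071 without knockout 2, and Iglv3 had 3, 6 and 8 counts in the libraries labelled knockout, against 5, 13 and 10 in the control libraries.

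The heavy chain classes divided the libraries into 5 with mostly IgA and control 2 with as much IgG as IgA. Igha made up 82.4, 78.0 and 77.6% of heavy constant counts in the libraries labelled knockout, against 83.7, 47.5 and 87.1% in the control libraries. The 4 IgG genes made up 13.7, 19.5 and 20.6% in the libraries labelled knockout, against 14.95, 50.3 and 12.1% in the control libraries. Exact Clopper-Pearson 95% intervals reached at most 1.69 percentage points from these shares, and they cover counting error only, because such reads are not independent molecules. Ighg1, Ighg2b and Ighg2c made up 22.6, 17.4 and 10.2% of heavy constant counts in control 2, against 2.65 to 7.34%, 5.29 to 8.31% and 2.23 to 8.01% over the other 5 libraries. On the CPM scale the IgG genes summed to 25.1, 40.6 and 73.9 CPM in the libraries labelled knockout, against 49.3, 87.4 and 99.7 CPM in the control libraries, so control 2 was not the highest in IgG but was the lowest in Igha. The mean IgA share was 6.57 percentage points higher in the knockout group than in the control group, and this difference was -6.09 percentage points without control 2.

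The share of Ighm was 3.45, 2.36 and 1.80% of heavy constant counts in the libraries labelled knockout, against 1.21, 2.24 and 0.723% in the control libraries. The groups overlapped, with knockout 1 the highest and control 3 the lowest. Igha, Igkc and Jchain together held 72.4 ± 1.66% of all immunoglobulin counts in the knockout group and 67.2 ± 13.2% in the control group (SD, n = 3 each).

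**Figure D3:**
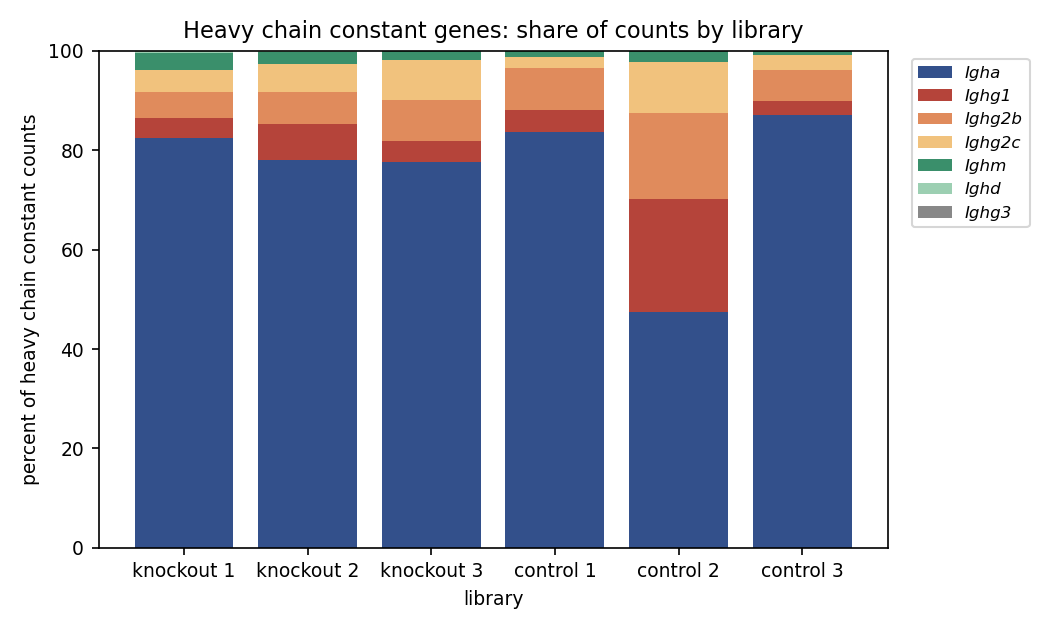
Percent of heavy constant counts in each heavy chain class for each library, with the libraries labelled knockout first and the controls after them. Control 2 has 47.5% Igha and 50.3% IgG, while Igha makes up 77.6 to 87.1% of the other 5 libraries.

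Nearly all Igha counts belonged to the secreted end, whereas much of Ighm belonged to the membrane end, using the ends shown above for both genes. The membrane form took 0.955, 0.566 and 0.458% of Igha counts in the libraries labelled knockout, against 0.582, 0.447 and 0.453% in the control libraries. For Ighm the membrane form took 94.6, 58.6 and 56.1% in the libraries labelled knockout, against close to 100, 44.7 and 46.3% in the control libraries, and the groups overlapped for both genes. Membrane forms took 0 to 1.25% of Ighg1 and 0 to 2.61% of Ighg2b over the 6 libraries. Both forms share most exons, so these are the estimated splits of the deposited transcript counts, and their uncertainty was not analysed here.

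Variable genes were many and none dominated. The 153 variable members held 1025, 1271 and 2433 counts in the libraries labelled knockout, against 1934, 1575 and 5203 in the control libraries. The effective number of variable genes, the number of equally used genes that would give the same concentration of counts, was 29.1, 35.3 and 30.6 for the heavy locus in the libraries labelled knockout, against 28.6, 35.2 and 33.6 in the control libraries. For the kappa locus it was 43.9, 36.2 and 41.0 in the libraries labelled knockout, against 31.6, 44.2 and 33.8 in the control libraries. The groups overlapped for both loci. At a common depth of 274 heavy variable counts, 54.0 to 58.3 genes were expected to be seen in each library, and at 722 kappa variable counts 67.0 to 71.9 genes.

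Ighv3-6 was the leading heavy variable gene of all 6 libraries, and its last 90 bases are shown for that reason (chr12:114288152-114288241, minus strand, GRCm38).
Ighv3-6: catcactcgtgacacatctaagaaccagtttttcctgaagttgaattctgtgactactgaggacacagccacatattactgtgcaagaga
It held 11.7, 8.72 and 9.55% of heavy variable counts in the libraries labelled knockout, against 11.3, 6.34 and 7.88% in the control libraries. Its level was 1.85, 2.02 and 3.41 CPM in the libraries labelled knockout, against 3.70, 1.62 and 7.94 CPM in the control libraries, with overlapping groups and a log2 fold change of -0.85 (SE 0.54) that was -0.11 without control 3. The large Ighv1 family, with 36 members, held 50.3 ± 5.17% of heavy variable counts in the knockout group and 46.9 ± 4.72% in the control group (SD, n = 3 each). Ighv5-17 had 7, 19 and 50 counts in the libraries labelled knockout, against 18, 29 and 113 in the control libraries, and its log2 fold change of -1.20 (SE 0.79) was 0.043 without control 3.

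The leading kappa variable gene changed between libraries. It was Igkv1-117 in knockout 1 and Igkv1-110 in knockout 2 and knockout 3, against Igkv4-59 in control 1, Igkv2-109 in control 2 and Igkv10-96 in control 3. The leading gene held 5.12, 8.005 and 5.97% of kappa variable counts in the libraries labelled knockout, against 7.76, 6.10 and 8.49% in the control libraries. The last 90 bases of Igkv1-110, Igkv1-117 and Igkv1-135, which are 3 of the kappa variable genes with the most counts, are set below each other to show how few bases tell them apart. They lie on the plus strand of GRCm38 at chr6:68271178-68271267, chr6:68121738-68121827 and chr6:67610419-67610508, and capitals mark bases that differ from Igkv1-110 (4 in Igkv1-117 and 10 in Igkv1-135).
Igkv1-110: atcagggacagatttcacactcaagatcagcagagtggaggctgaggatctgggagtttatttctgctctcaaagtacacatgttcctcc
Igkv1-117: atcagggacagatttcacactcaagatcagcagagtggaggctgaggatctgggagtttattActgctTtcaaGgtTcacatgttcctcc
Igkv1-135: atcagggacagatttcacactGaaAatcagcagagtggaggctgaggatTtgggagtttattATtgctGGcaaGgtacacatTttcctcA
Over the aligned transcripts Igkv1-110 and Igkv1-117 are 97.5% identical, so counts could be split between them.

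Igkv1-110 had 1.505, 4.35 and 4.33 CPM in the libraries labelled knockout, against 5.34, 1.62 and 9.92 CPM in the control libraries. Igkv1-117 had 2.14, 2.96 and 3.96 CPM in the libraries labelled knockout, against 3.09, 1.87 and 9.51 CPM in the control libraries. Igkv1-135 had 1.33, 2.46 and 3.27 CPM in the libraries labelled knockout, against 5.15, 1.47 and 10.4 CPM in the control libraries. The groups overlapped for all 3 genes, with control 3 highest each time. Their log2 fold changes were -0.72 (SE 0.62), -0.66 (SE 0.57) and -1.25 (SE 0.64). Without control 3 they were -0.019 for Igkv1-110, 0.30 for Igkv1-117 and -0.47 for Igkv1-135. As a share of kappa variable counts, Igkv1-117 averaged 5.35 ± 0.192% in the knockout group and 4.11 ± 0.677% in the control group (SD, n = 3 each), the other share without overlap.

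Igkv10-96 had the most counts of any variable gene and is shown with its close relative Igkv10-94 (last 90 bases, minus strand of GRCm38, chr6:68631963-68632052 and chr6:68704508-68704597; capitals mark the 12 bases that differ from Igkv10-96).
Igkv10-96: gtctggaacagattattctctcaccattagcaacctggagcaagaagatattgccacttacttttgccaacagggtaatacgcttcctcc
Igkv10-94: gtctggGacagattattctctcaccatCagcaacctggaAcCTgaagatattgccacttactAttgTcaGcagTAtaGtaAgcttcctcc
Igkv10-96 had 36, 13 and 71 counts in the libraries labelled knockout, against 60, 44 and 283 in the control libraries. Control 3 alone held more counts than the other 5 libraries together, and the log2 fold change of -1.83 (SE 0.78) was -0.48 without it. Igkv4-59 was highest in control 1, with 29, 19 and 24 counts in the libraries labelled knockout, against 104, 34 and 25 in the control libraries, and its log2 fold change of -1.24 (SE 0.58) was -0.26 without control 1. Igkv2-109 had 8, 26 and 43 counts in the libraries labelled knockout, against 35, 62 and 119 in the control libraries, and its groups did not overlap on the CPM scale (log2 fold change -1.56, SE 0.58, and -0.94 without control 3).

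Some rarely counted variable genes were uneven between libraries; those named here were chosen after their values were seen. Igkv3-3 had 24 counts in control 3 and 0 in each of the other 5 libraries, and Ighv15-2 had 27 of its 29 counts in control 3. Igkv8-24 had 83 of its 130 counts there. Igkv4-86 had 20 counts in knockout 1 and 14 in control 2, against 0 to 2 in the other libraries.

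The 5 members of lowest unadjusted p were variable genes with lower means in the knockout group, and none passed the adjusted threshold. Genes as rare as Ighv2-2, Ighv8-8 and Igkv5-43 entered the test through their higher counts in the control libraries, so their direction is in part set by the expression filter and is a description. Ighv2-2 had 3, 6 and 8 counts in the libraries labelled knockout, against 19, 13 and 42 in the control libraries (log2 fold change -2.17, SE 0.60; edgeR unadjusted p = 0.00671, adjusted p = 0.999). Ighv8-12 had 8, 21 and 11 counts in the libraries labelled knockout, against 40, 30 and 75 in the control libraries (log2 fold change -1.87, SE 0.55). Igkv6-17 had 22, 19 and 35 counts in the libraries labelled knockout, against 33, 55 and 81 in the control libraries (log2 fold change -1.21, SE 0.37). All 3 had groups that did not overlap on the CPM scale. Igkv5-43 and Ighv8-8 stood at -1.85 (SE 0.57) and -1.82 (SE 0.62), also without overlap. Without control 3 the log2 fold change was -1.52 for Ighv2-2, -0.97 for Ighv8-8 and -0.81 for Igkv6-17. Besides Ighm, the tested members with a fold change above 0 were Igkv3-12 at 0.57 (SE 0.56) and Igkv4-74 at 0.41 (SE 0.53), both with overlapping groups, with 0.0065 for Igkv3-12 without knockout 3 and -0.052 for Igkv4-74 without knockout 2.

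Variable genes were used along the whole length of their loci in both groups. Heavy variable members lay 165.5 to 2577 kb from Ighm, and the 36 of 72 nearer to it held 46.5 ± 4.14% of heavy variable counts in the knockout group and 46.1 ± 3.05% in the control group (SD, n = 3 each). Kappa variable members lay 22.3 to 3170 kb from Igkc, and the 39 of 78 nearer to it held 50.04 ± 4.12% in the knockout group and 49.7 ± 5.17% in the control group. The 32 kappa genes on the plus strand held 49.4 ± 5.11% in the knockout group and 49.0 ± 3.75% in the control group. Across genes, which are not independent replicates, the Pearson correlation of variable gene shares between pairs of libraries was 0.60 to 0.81 for heavy and 0.61 to 0.79 for kappa genes between a library labelled knockout and a control. It was 0.64 to 0.72 and 0.67 to 0.82 among the libraries labelled knockout, and 0.70 to 0.72 and 0.61 to 0.63 among the control libraries.

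**Figure D4:**
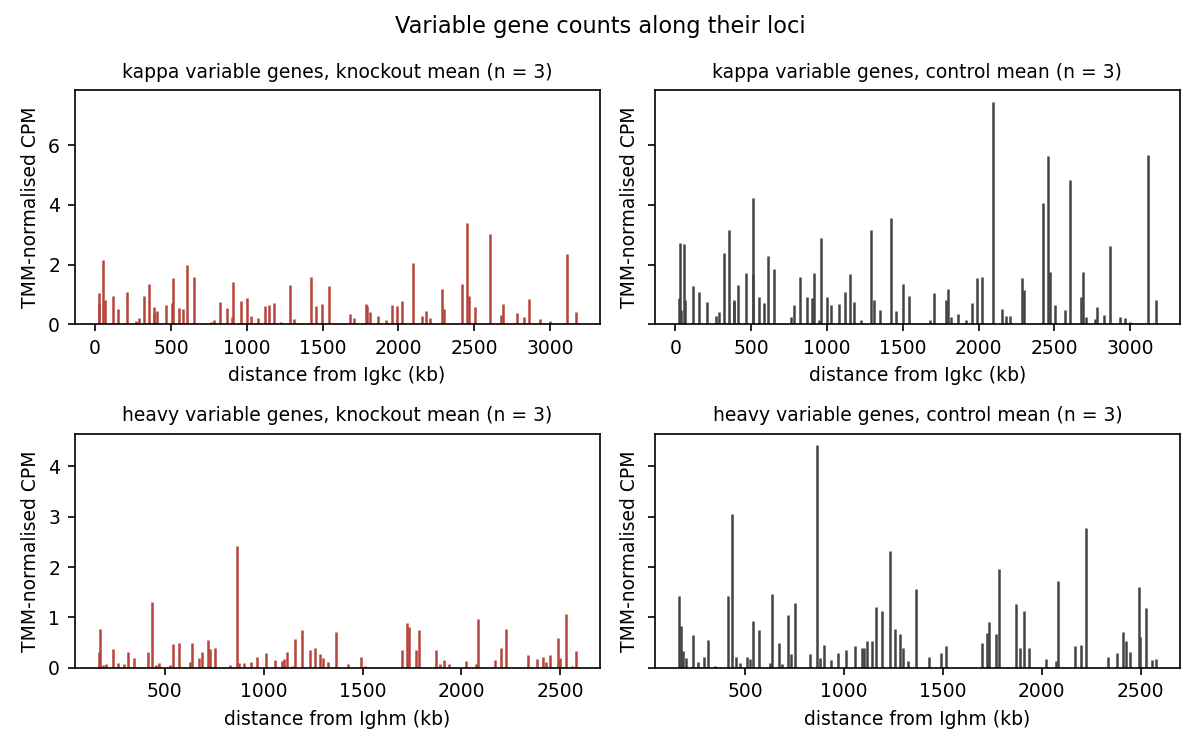
Mean TMM-normalised CPM (n = 3 each) of each variable gene by its distance in kb from Igkc (kappa genes, top) or Ighm (heavy genes, bottom), with the knockout group on the left and the control group on the right, on the same vertical scale. Counts are spread over the whole of both loci, and the tallest kappa bar in the control group is Igkv10-96 at 7.46 CPM.

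Transcripts that mark B cells and plasma cells were rare in all 6 libraries, and no gene of these lists passed the test. Cd79a, a signalling chain of the B cell receptor, had 0.637, 0.882 and 0.967 CPM in the libraries labelled knockout, against 1.76, 0.304 and 2.45 CPM in the control libraries. Mzb1, a chaperone of antibody secretion, had 1.39, 1.26 and 2.53 CPM in the libraries labelled knockout, against 1.94, 1.67 and 3.50 CPM in the control libraries. Control 3 was the highest library for both genes, and the groups overlapped. The log2 fold changes were -0.84 (SE 0.65) for Cd79a, -0.44 (SE 0.41) for Mzb1 and -0.80 (SE 0.48) for Irf4, a transcription factor of plasma cells. Other genes of both lists had fold changes above 0, as given below. Tnfrsf17, the survival receptor of plasma cells, stood at 0 to 0.233 CPM, where a limit of 3 counts equals 0.141 to 0.187 CPM.

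In the B cell list 12 genes were tested, with 7 above and 5 below a fold change of 0 and a median log2 fold change of 0.04, where the median of all genes tested was -0.01. The list summed to 72.2, 82.4 and 79.2 CPM in the libraries labelled knockout, against 67.1, 57.2 and 78.4 CPM in the control libraries. Its most abundant genes, which kidney cells may also express, were Ralgps2 (log2 fold change 0.38, SE 0.17), Blnk (-0.01, SE 0.20), Bach2 (0.08, SE 0.48) and Ebf1 (0.01, SE 0.31). Cd72, an inhibitory B cell receptor, had 3.30, 3.59 and 3.92 CPM in the libraries labelled knockout, against 2.001, 2.48 and 1.52 CPM in the control libraries, without overlap (log2 fold change 0.84, SE 0.27; edgeR adjusted p = 0.999). In the plasma cell list 19 genes were tested, with 7 above and 12 below 0 and a median of -0.12. Its most abundant genes, which kidney cells may also express, were Xbp1 (-0.43, SE 0.27), Pdia4 (-0.31, SE 0.17), Edem1 (0.00, SE 0.15) and Txndc5 (-0.08, SE 0.10). Xbp1 is a factor of the secretory programme, and the last 3 work in protein folding in the endoplasmic reticulum. Xbp1 stood at 347 CPM in control 3, against 150.4 to 189.7 CPM in the other 5 libraries. Control 3 was also the library that stood apart in Hspa1a and Egr1, and which cells gave its Xbp1 counts was not tested. Slamf7 had 1.39, 2.90 and 2.35 CPM in the libraries labelled knockout, against 0.606, 0.456 and 0.759 CPM in the control libraries. Its groups did not overlap (log2 fold change 1.86, SE 0.40, edgeR adjusted p = 0.999). Eaf2 (0.44, SE 0.20) and Trp53inp1 (0.50, SE 0.16) were also higher without overlap, as were 4.25% of all genes with 10 or more summed counts. Prdm1 (0.15, SE 0.39) and Tnfrsf13b (0.08, SE 0.43) overlapped.

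**Figure D5:**
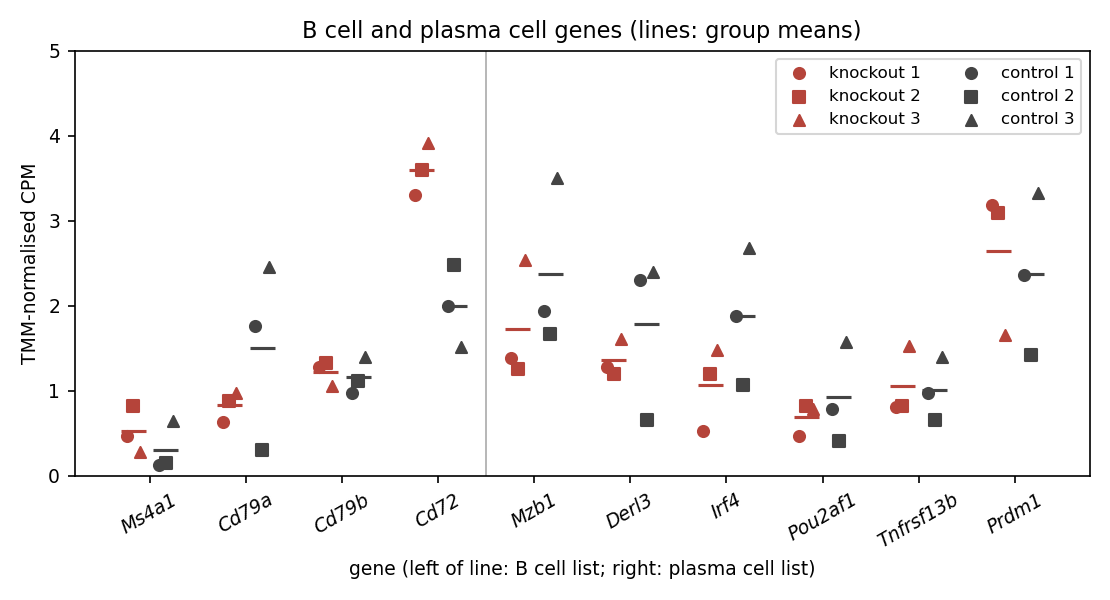
TMM-normalised CPM of B cell and plasma cell marker genes, 1 point per library and a line at each group mean, with the libraries labelled knockout to the left of the controls for each gene. Control 3 is highest for Cd79a at 2.45 CPM and Mzb1 at 3.50 CPM, and the groups overlap for both.

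Genes of V(D)J joining gave almost no counts. Rag2 and Vpreb2 were listed at 0 in all 6 libraries, Rag1 was seen in 1 library and Dntt in 2, all of them controls. The list of 14 such genes had 5 tested, with 1 above and 4 below 0 and a median log2 fold change of -0.09. Its most abundant genes, Bcl6 (0.97, SE 0.73), Mki67 (-0.09, SE 0.26), S1pr2 (-0.07, SE 0.29) and Ung (-0.16, SE 0.38), are not restricted to B cells. Vpreb1, a surrogate light chain gene, had 15, 8 and 30 counts in the libraries labelled knockout, against 11, 18 and 28 in the control libraries (log2 fold change -0.20, SE 0.49). Bcl6 was highest in knockout 3, at 144.7 CPM.

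Among signals that keep or attract plasma cells, 9 genes were tested, with 3 above and 6 below 0; their median log2 fold change was -0.45, and no gene passed the threshold. Tnfsf13b, the survival factor BAFF, had 0.810, 0.819 and 0.599 CPM in the libraries labelled knockout, against 1.09, 1.47 and 1.46 CPM in the control libraries. Ccr10, the receptor by which IgA plasma cells follow Ccl28, had 0.695, 0.504 and 0.322 CPM in the libraries labelled knockout, against 0.788, 1.01 and 1.28 CPM in the control libraries. Both had lower values in every library labelled knockout than in any control, with log2 fold changes of -0.86 (SE 0.34) and -1.03 (SE 0.43) and adjusted p = 0.999 in edgeR. Ccr9, the receptor of Ccl25, had 0.753, 0.567 and 0.645 CPM in the libraries labelled knockout, against 0.121, 0.557 and 0.350 CPM in the control libraries. Its counts, 13, 9 and 14 against 2, 11 and 6, did overlap, and knockout 2 and control 2 nearly tied on the CPM scale. The log2 fold change was 0.89 (SE 0.54, edgeR adjusted p = 0.999). These 3 genes were picked after their values were seen. Of all genes with 10 or more summed counts, 4.15% were lower and 4.25% higher without overlap. Cxcl12, a chemokine of plasma cell niches, stood at -0.61 (SE 0.23), Ccl25 at 0.03 (SE 0.16) and Cxcr4, the receptor of Cxcl12, at -0.48 (SE 0.38), and all 3 overlapped between groups.

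Control 2 lay at an extreme of Ccl28 and Pigr as it did of Igha, and it also stood apart on the leading principal component. Ccl28 had 31.7, 66.1 and 50.9 CPM in the libraries labelled knockout, against 44.6, 7.24 and 44.1 CPM in the control libraries. Pigr had 285, 294 and 455 CPM in the libraries labelled knockout, against 289, 715 and 243 CPM in the control libraries. Control 2, the library with the least Igha, thus had the least Ccl28 and the most Pigr. It was also the highest library for B2m (543 CPM), Trim21 (13.5 CPM), Cubn (705 CPM) and Cxcl12 (208 CPM), and the lowest for Fcgrt (234 CPM). For Fcamr and Lrp2 it lay inside the range of the other libraries. The share of all genes with an extreme in control 2 was not counted, and a link of Ccl28 or Pigr to Igha was not tested. The log2 fold changes were 0.64 (SE 0.58) for Ccl28 and -0.27 (SE 0.40) for Pigr. In the list of immunoglobulin transport and retrieval, 7 genes were tested, 1 above and 6 below 0, with a median of -0.20 and none past the threshold; Lrp2, the proximal tubule receptor megalin, stood at -0.19 (SE 0.13), Cubn at -0.16 (SE 0.13) and B2m at -0.22 (SE 0.27).

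Marker lists of T cells, macrophages and red blood cells were not highest in control 3, where the immunoglobulin genes were. T cell genes summed to 17.4, 14.1 and 11.7 CPM in the libraries labelled knockout, against 13.4, 13.9 and 14.2 CPM in the control libraries (11 tested, 8 above and 3 below 0, median 0.26). Macrophage and dendritic cell genes summed to 213, 177 and 162 CPM in the libraries labelled knockout, against 137, 153 and 155 CPM in the control libraries (14 tested, 13 above and 1 below 0, median 0.38). Red blood cell genes summed to 185, 239 and 169.7 CPM in the libraries labelled knockout, against 269, 244 and 189 CPM in the control libraries (6 tested, median -0.26). Neutrophil genes (2 tested, median -0.26), endothelial genes (5 tested, median -0.09) and stromal genes (5 tested, median -0.45) had 0 called. Lymph node and adipose genes had 4 tested, with a median of -0.42; of the lymph node markers, Glycam1 was listed at 0 in all libraries and Ccl21a reached 0.252 CPM in 1. Among tubular genes 1 of 7 was called, Kap, an androgen-regulated gene of proximal tubule, with 0 counts in each library labelled knockout, against 16416, 8717 and 16589.6 CPM in the control libraries (edgeR adjusted p = 0.00105); its part in the immunoglobulin values was not tested.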

How the data were processed

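Per the file headers, the authors deposited estimated counts without normalization and FPKM values for 128603 transcripts in 6 libraries. Tools in the submitters' processing notes are HISAT2 2.0.1, Cuffdiff 2.2.1, cutadapt 1.9.1, FastQC 0.10.1 and bcl2fastq 2.17.1.14, with the build GRCm38; the sources used here do not give the program behind the estimated counts or the strandedness. Reads of near-identical variable genes could be split or lost by that program, and joined segments carry mutations that the reference lacks.

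Estimated counts were summed per gene symbol and rounded (87.9% of the sums above 0 were whole to within 0.01). Groups were compared with edgeR 4.0.16 (R 4.3.3; quasi-likelihood test, TMM, filterByExpr with a minimum count of 10, no term but group), with p adjusted by Benjamini-Hochberg over all 15017 genes and called under 0.05. The fit was tried on simulated counts with the same dispersion for every gene and with changes placed only in well-counted genes. That trial does not show how the test performs for members that vary more or have fewer counts. Fold changes are log2 of knockout over control with standard errors (SE). For single genes an exact permutation test on log2(CPM + 1), two-sided, was added. Shares have exact Clopper-Pearson 95% intervals (scipy 1.17.1), and sums and shares over members were not tested. Groups came from the sample titles. The 16061435 to 21261226 counts per library make 3 counts, the limit a count of 0 allows, 0.141 to 0.187 CPM, for counting error only.

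Alternatives were DESeq2 1.42.0, limma 3.58.1 on log2(FPKM + 1) and log2(FPKM + 0.1) for genes with FPKM of 1 or more in 3 libraries, other scalings, filters and member minimums, sums per gene ID, a replicate block, and each library left out in turn. The members, gene lists and tests were chosen with earlier results of these data known. Genes were named by rule: all constant genes and Jchain, per locus the 3 variable genes with the most counts and each library's leading gene, the 5 members of lowest p per direction, the 4 most abundant genes per list and any called; for lists of other cells only counts, medians and sums are given. Defining markers, Cd72, Slamf7, Eaf2, Trp53inp1, Prdm1, Tnfrsf13b, Vpreb1 and the signals Tnfsf13b, Ccr9, Ccr10 and Cxcr4 were added after their values were seen. Sequences and transcript lengths are from GENCODE M21 on GRCm38, in which 94.1% of 51628 shared gene IDs have the deposited coordinates. A few listed genes are not reported here.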

Additional observations from a re-analysis of the deposited data

How the results depend on the processing

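No member was called in any of the 14 alternative fits (DESeq2, limma, other scalings, filters, the block and each library left out among them). Over all genes, 1 was called higher in the knockout group, against 0 with raw library totals and with limma at either pseudocount, 3 without a filter, 13 with DESeq2, and 0 to 2 with a library left out. Lower in the knockout group was 1 gene, against 2 without a filter and with DESeq2, and 1 to 4 with a library left out. Members lower at an unadjusted p under 0.05, a count added after the data were seen, ranged between 5 and 38 with a library left out. Members with the lower mean in the knockout group, also added, numbered 101 to 149. The log2 ratio of summed immunoglobulin lay between -1.24 (without control 2) and -0.05 (without control 3). Signs turned without control 3 for Igha (0.14), Jchain (0.070), Ighv5-17 (0.043) and Igkv1-117 (0.30), without knockout 2 for Igkv4-74 (-0.052), and for Ighg2c without knockout 1 (0.29), knockout 2 (0.15), control 2 (0.02) or control 3 (0.37); the cause was not tested. With a library left out, log2 fold changes spanned -1.33 to 0.14 for Igha, -1.32 to 0.070 for Jchain, -0.74 to 0.37 for Ighg2c, -1.93 to 0.043 for Ighv5-17, -1.05 to 0.30 for Igkv1-117 and -0.052 to 1.03 for Igkv4-74. The leading heavy variable gene share differed by 4.81 percentage points with a member minimum of 100 counts, against 1.46, since fewer genes enter its denominator. Replicate numbers did not pair the libraries (same-number correlations of 0.104, -0.111 and 0.113). With the replicate block 0 members were called, 1 gene was higher and 1 lower, and the log2 fold change of Igha was -0.45. Depth limits the rarer variable genes, of which 66 of 153 entered the test.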

Other observations

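The 215 matching symbols below the minimum of 10 summed counts held 152 counts in all, and 175 of them had 0. The 20 diversity segments of the heavy locus had 0 counts in every library. Igll1, a surrogate light chain gene outside the name pattern, had 6, 2 and 2 counts in the libraries labelled knockout, against 0, 1 and 2 in the control libraries. Within families, Igkv4, Igkv1 and Igkv6 led the kappa locus, with 18.2 ± 2.03%, 16.8 ± 3.67% and 12.2 ± 2.08% of kappa variable counts in the knockout group, against 17.8 ± 3.31%, 15.002 ± 3.50% and 13.7 ± 0.126% in the control group (SD, n = 3 each).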
